A study of Homo sapiens with 12 samples.

Results

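The expression of 9 genes of integrins and adhesion receptors of the immune synapse, ICAM1, ITGAL, ITGB2, ITGA4, ITGB1, ITGB7, ITGAE, CD2 and CD58, was analysed in 12 RNA-seq libraries. They were taken from the gene table by gene symbol, and all 9 were among its 17589 genes. The libraries came from YT cells, a human lymphoid line labelled as natural killer (NK)-like, which were transduced with a lentiviral vector and sequenced without stimulation. Each of 4 groups held 3 replicates. CTRL cells carried eGFP. hnCD16 cells carried a high-affinity, non-cleavable CD16, the Fc receptor through which NK cells bind antibody-coated targets, with its native tail. FR1 cells carried the ectodomain and transmembrane part of hnCD16 fused to the cytoplasmic domains of 2B4, DAP10 and CD3ζ. FR2 cells carried the same fusion without the 2B4 domain. The hnCD16, FR1 and FR2 inserts were driven by the hEF1A promoter, and eGFP-positive cells were sorted in all 4 groups. The labels do not say that the replicates were separate cultures, and the methods speak of independent experiments for in vitro data as a whole without naming the RNA-seq libraries, so the p-values measure the spread between these libraries, which may be technical.

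Integrins are heterodimers of an α and a β chain that need both chains to reach the cell surface. ITGAL and ITGB2 encode LFA-1, the integrin with which NK and T cells hold on to ICAM1 on a target cell during killing. ITGA4 pairs with ITGB1 in VLA-4, a receptor for VCAM1 and fibronectin, or with ITGB7 in α4β7, a receptor for the gut addressin MADCAM1, whereas ITGAE pairs with ITGB7 in αEβ7, which binds E-cadherin on epithelium. CD2 is an adhesion and co-stimulatory receptor of T and NK cells, and CD58 is its ligand on the opposing cell.

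The libraries held 17714566 to 18729019 counts. They fell into 2 pairs of groups that differed far beyond these 9 genes: 271 genes had at least 1 CPM (counts scaled to library size) in all 6 FR1 and FR2 libraries and at most 3 counts in each of the other 6 libraries, and 459 genes had the opposite pattern. FCGR3A, the CD16a gene whose sequence the constructs carry, had 0 counts in the CTRL libraries, and its counts ran from 453 to 480 with hnCD16, from 559 to 567 with FR1 and from 1012 to 1132 with FR2, although reads of its near-identical copy FCGR3B may be divided with it. Of 14 NK cell markers in the table, 4 were on (at least 1 CPM in all 3 libraries) in CTRL and in hnCD16 and 10 were on in FR1 and in FR2, and their summed level was 47.0 to 58.9 TPM (a length-corrected share of transcripts) with CTRL or hnCD16 and 7432 to 8115 TPM with FR1 or FR2. Of 9 T cell markers, 7 were on in CTRL and in hnCD16 and 4 in FR1 and in FR2, with summed levels of 1655 to 1874 TPM and of 159 to 190 TPM. CD3E, part of the T cell receptor complex, had 1932 to 2828 counts in CTRL and hnCD16 and 595 to 717 in FR1 and FR2. NCAM1, the CD56 gene that defines NK cells, had 0 to 4 counts with CTRL or hnCD16, which goes against the NK-like label, and 21 to 42 counts with FR1 or FR2. Its mean level was low there too, at 0.617 TPM in FR1 and 0.393 TPM in FR2. The summed B cell markers spanned 15.4 to 24.9 TPM in CTRL and hnCD16 and 8.16 to 10.2 TPM in FR1 and FR2, and the summed myeloid markers 4.67 to 7.57 TPM and 5.71 to 10.2 TPM. CD14, a monocyte marker, had 0 to 2 counts in any library. These differences run with every comparison across the 2 pairs given here, in which the construct and the cell population that carried it cannot be told apart. In bulk RNA, fewer cells of a type and less RNA per cell also cannot be told apart.

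Of the 9 genes, 8 passed the filter on low counts and were tested with edgeR, and CD2 did not pass. A differentially expressed gene (DEG) was one whose log2 fold change reached 1 in size with an adjusted p (Benjamini-Hochberg, over all 13657 genes tested) of 0.05 or less. In FR1 against hnCD16, 4 of the 8 were DEGs (ICAM1, ITGAL and ITGB7 up-regulated, ITGB2 down-regulated), beside 38.3% of all genes tested (18.7% higher and 19.6% lower). In FR2 against hnCD16, 5 were DEGs, the same 4 and ITGB1, beside 39.5% of all genes tested (19.6% higher and 19.9% lower). In FR1 against CTRL, 7 were DEGs, with 6 higher and ITGB2 lower, beside 38.0% of all genes (18.3% higher and 19.7% lower). In FR2 against CTRL, 6 were DEGs, with 5 higher and ITGB2 lower, beside 38.2% (18.7% higher and 19.6% lower). Without the fold threshold all 8 genes had an edgeR adjusted p of at most 0.05 in each of these 4 comparisons, where 79.1%, 80.1%, 79.9% and 80.2% of all genes tested did. These comparisons share their hnCD16, CTRL, FR1 or FR2 libraries with each other, so they are not independent of one another. The median log2 fold change of the 8 genes was 0.97, 1.06, 1.15 and 1.36 in the same order, and that of all genes tested lay between -0.04 and -0.01.

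**Figure D1:**
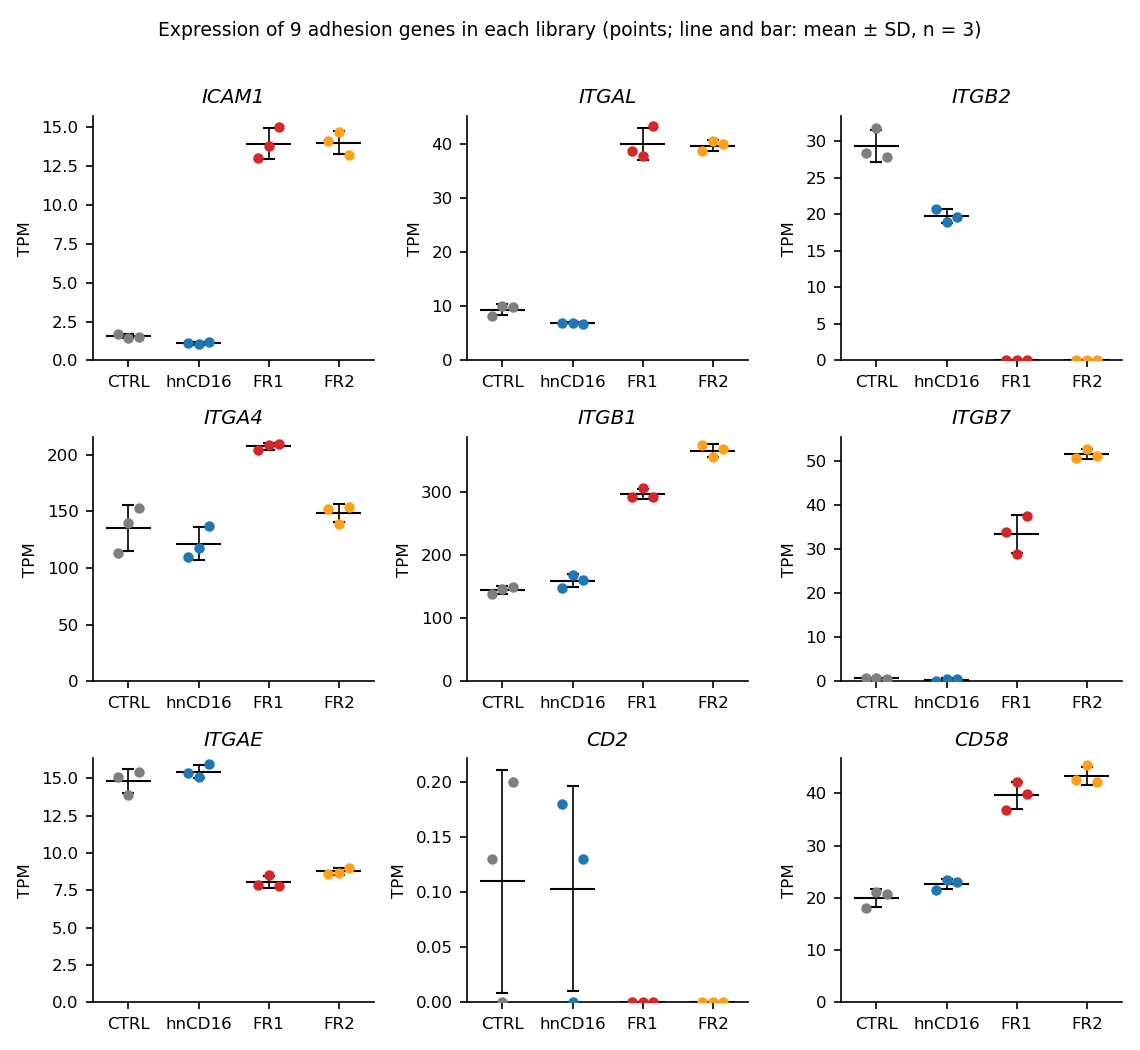
Expression of the 9 genes in TPM (y axes, linear, each starting at 0) in the 3 libraries of each group (x axes). Points are libraries, and the line and bar are the mean ± SD. ICAM1, ITGAL, ITGB1, ITGB7 and CD58 were higher and ITGB2 and ITGAE were lower in all FR1 and FR2 libraries than in all CTRL and hnCD16 libraries, and CD2 had no more than 0.20 TPM in any library.

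ICAM1 (NCBI Gene 3383, chr19:10271093-10286615, + strand, GENCODE v44 on GRCh38) encodes the ligand of LFA-1 and is itself displayed by activated leukocytes. Its level was 1.68, 1.47 and 1.53 TPM in the 3 CTRL libraries and 1.09, 1.03 and 1.21 TPM in the 3 hnCD16 libraries. In FR1 it was 13.02, 13.8 and 15.01 TPM, and in FR2 it was 14.1, 14.7 and 13.2 TPM. All 6 FR libraries were thus above all 6 others, and the FR1 and FR2 ranges overlapped. The gene was up-regulated 13.2-fold in FR1 and 13.1-fold in FR2 against hnCD16 (log2 fold change 3.72 ± 0.106 and 3.71 ± 0.106, ± SE, edgeR adjusted p = 9.53e-16 and 9.18e-16), and 10.3-fold in each against CTRL (log2 fold change 3.37 ± 0.10, edgeR adjusted p = 1.62e-15 and 1.59e-15). Between hnCD16 and CTRL the difference missed the threshold (log2 fold change -0.35 ± 0.156, edgeR adjusted p = 0.123).

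The LFA-1 chains moved apart. ITGAL (NCBI Gene 3683, chr16:30472658-30523567, + strand), the αL chain, had 8.14, 9.98 and 9.84 TPM in CTRL and 7.0, 6.98 and 6.81 TPM in hnCD16. In FR1 it had 38.7, 37.8 and 43.3 TPM, and in FR2 it had 38.6, 40.5 and 39.9 TPM. The FR1 and FR2 libraries lay together, well above the CTRL libraries, and these lay above the hnCD16 libraries. ITGAL was up-regulated 6.06-fold in FR1 and 5.96-fold in FR2 against hnCD16 (log2 fold change 2.60 ± 0.0688 and 2.58 ± 0.0688, edgeR adjusted p = 3.09e-16 and 3.37e-16), and 5.01-fold and 4.93-fold against CTRL (edgeR adjusted p = 1.04e-15 and 1.14e-15).

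ITGB2 (NCBI Gene 3689, chr21:44885953-44931989, - strand), the β2 chain with which αL and the other β2-family α chains pair, went the other way. It had 28.4, 31.9 and 27.9 TPM in CTRL and 20.8, 18.9 and 19.7 TPM in hnCD16. The FR1 libraries had 0.07, 0.07 and 0 TPM and the FR2 libraries had 0.10, 0.03 and 0.04 TPM, which were 2, 2, 0, 3, 1 and 1 counts against 560 to 905 counts in the other 6 libraries. The gene was therefore at or near the floor of 3 counts in every FR library, where the size of a fold change rests on a few reads. Summed over the 3 libraries, scaled counts were 411 times higher in hnCD16 than in FR1 (exact 95% interval 160 to 1509) and 334 times higher than in FR2 (143 to 1031), and in CTRL they were 547 times (214 to 2011) and 446 times (191 to 1374) higher. These intervals and the floor cover counting error only. ITGB2 was a DEG in all 4 comparisons (edgeR adjusted p from 7.32e-17 to 3.33e-16). Leaving out the FR1 library with 0 counts changed the fitted log2 fold change against hnCD16 from -8.56 to -8.01, and leaving out the FR2 library with 3 counts changed it from -8.29 to -8.92. Against CTRL the same omissions changed it from -8.97 to -8.42 and from -8.70 to -9.36. In the CTRL and hnCD16 libraries the ITGAL level was 0.286 to 0.369 of the ITGB2 level in TPM, and in the FR libraries no ratio was formed because ITGB2 was at the floor.

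ITGA4 (NCBI Gene 3676, chr2:181457202-181538940, + strand), the α4 chain, was abundant in all 4 groups. Its level was 114, 139.9 and 153 TPM in CTRL, 109.9, 118 and 137 TPM in hnCD16, 204, 209 and 209 TPM in FR1, and 152, 139 and 154 TPM in FR2. FR1 stood above the other groups, while the ranges of FR2 and CTRL and of CTRL and hnCD16 overlapped. On counts, the gene was up-regulated in FR1 against CTRL (log2 fold change 1.05 ± 0.0666, edgeR adjusted p = 9.32e-11), a call that was lost without CTRL replicate 1 (0.97), with library size only (0.85) and on log2(TPM + 1) with limma (0.62). Its other log2 fold changes were under 1: 0.97 ± 0.0665 in FR1 and 0.48 ± 0.0662 in FR2 against hnCD16, and 0.55 ± 0.0663 in FR2 against CTRL. Without hnCD16 replicate 3 the value in FR1 against hnCD16 was 1.04, past the threshold.

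ITGB1 (NCBI Gene 3688, chr10:32887273-33005792, - strand), the β1 chain shared by most matrix-binding integrins, was the most abundant of the 9 genes by mean TPM in all 4 groups. In CTRL replicate 3, ITGA4 was slightly above it. The CTRL libraries had 139, 146 and 149.9 TPM and the hnCD16 libraries 148, 168 and 161 TPM. The FR1 libraries had 292, 307 and 293 TPM and the FR2 libraries 374, 355 and 368 TPM. The order was FR2, FR1 and then hnCD16 with CTRL, whose ranges overlapped. ITGB1 was up-regulated in FR2 against hnCD16 (log2 fold change 1.26 ± 0.0469, edgeR adjusted p = 4.02e-14), in FR1 against CTRL (1.26 ± 0.0471, edgeR adjusted p = 4.60e-14) and in FR2 against CTRL (1.55 ± 0.0473, edgeR adjusted p = 2.47e-15). In FR1 against hnCD16 its log2 fold change was 0.97 ± 0.0468 (edgeR adjusted p = 1.74e-12), just under the fold threshold, and 1.02 without hnCD16 replicate 2.

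ITGB7 (NCBI Gene 3695, chr12:53191323-53207282, - strand), the β7 chain of the mucosal homing integrins, showed the steepest rise of the 9. It was close to absent in CTRL, with 0.76, 0.74 and 0.52 TPM (22, 21 and 15 counts), and in hnCD16, with 0, 0.54 and 0.62 TPM (0, 15 and 17 counts). The FR1 libraries had 33.9, 28.8 and 37.5 TPM and the FR2 libraries 50.7, 52.8 and 51.1 TPM. Every FR2 library was above every FR1 library, and the CTRL and hnCD16 ranges overlapped. ITGB7 was up-regulated against hnCD16 by 6.56 ± 0.230 in FR1 and by 7.17 ± 0.220 in FR2 on the log2 scale, and against CTRL by 5.80 ± 0.206 and 6.42 ± 0.198 (edgeR adjusted p from 2.40e-15 to 2.14e-14). The summed scaled counts were 95.3 times higher in FR1 than in hnCD16 (exact 95% interval 67.3 to 140) and 145 times higher in FR2 (103 to 213), and 56.3 times (43.4 to 74.3) and 85.9 times (66.4 to 113) higher than in CTRL. These intervals cover counting error only and leave out the spread between libraries, which in hnCD16 had 0, 15 and 17 counts. Without hnCD16 replicate 1, the library with 0 counts, the log2 fold changes against hnCD16 were 5.98 and 6.60. Of 4451 exon bases of ITGB7, 1881 overlap exons of ZNF740 on the opposite strand. The strand setting of the counting is not given in the sources used here, so reads of the shared bases cannot be told apart, and ZNF740 itself had 543 to 904 counts per library. ITGA4 likewise shares 2813 of 10654 exon bases with CERKL (22 to 69 counts per library), and ITGAE shares 427 of 6602 with HASPIN (232 to 350 counts).

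ITGAE (NCBI Gene 3682, chr17:3714628-3801188, - strand), the αE chain or CD103 that marks tissue-resident lymphocytes, was lower in the FR groups but passed the fold threshold in none of the 4 comparisons. It had 15.1, 13.9 and 15.4 TPM in CTRL, 15.4, 15.1 and 15.9 TPM in hnCD16, 7.88, 8.52 and 7.77 TPM in FR1, and 8.61, 8.67 and 9.00 TPM in FR2. The CTRL and hnCD16 libraries overlapped and lay above all FR libraries. Its log2 fold change was -0.85 ± 0.0682 in FR1 and -0.74 ± 0.0673 in FR2 against hnCD16, and -0.65 ± 0.0686 and -0.53 ± 0.0678 against CTRL (edgeR adjusted p from 2.32e-09 to 1.09e-06). The αE and β7 chains of the same heterodimer thus had differences of opposite sign.

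**Figure D2:**
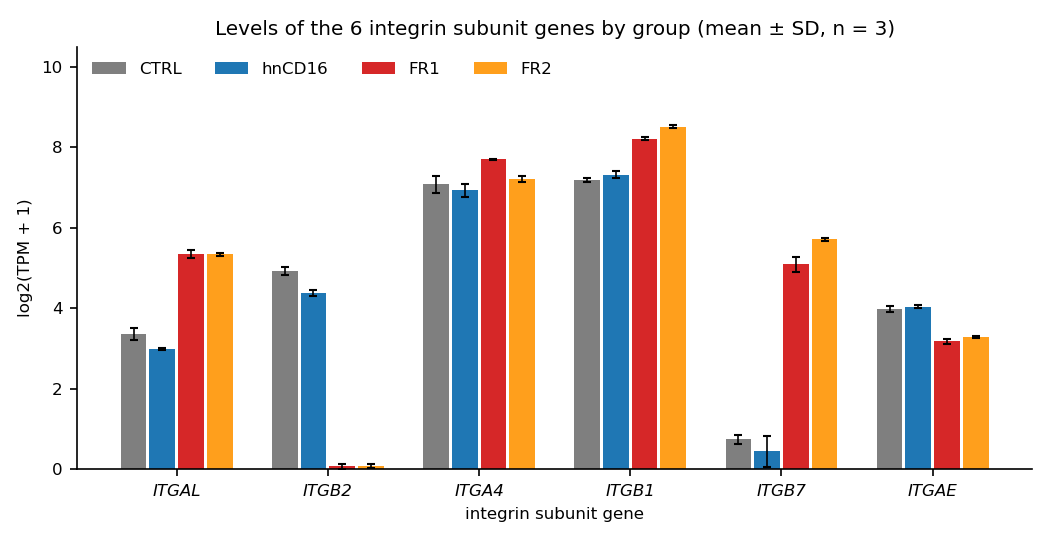
Levels of the 6 integrin subunit genes on the scale log2(TPM + 1) (y axis, starting at 0) in CTRL, hnCD16, FR1 and FR2. Bars are means and error bars are SD (n = 3). ITGB2 had a bar in CTRL and hnCD16 and almost none in FR1 and FR2, and ITGB7 had the opposite pattern, while ITGA4 and ITGB1 were high in all 4 groups.

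The balance between chains was compared as log2 ratios of TPM, a scale corrected for gene length, with exact two-sided permutation tests. As a share of the ITGB1 level, the ITGA4 level lay between 0.819 and 1.02 in CTRL, between 0.698 and 0.852 in hnCD16, whereas it was 0.681 to 0.715 in FR1 and 0.391 to 0.418 in FR2, so the FR2 libraries had the least α4 message per β1 message. ITGA4 exceeded ITGB7 by 149 to 294 times in CTRL, by 5.59 to 7.25 times in FR1 and by 2.63 to 3.01 times in FR2. ITGAE exceeded ITGB7 by 18.8 to 29.7 times in CTRL, whereas ITGB7 exceeded ITGAE by 3.38 to 4.82 times in FR1 and by 5.67 to 6.09 times in FR2. The ITGB1 level was 183 to 288 times the ITGB7 level in CTRL, 7.81 to 10.6 times in FR1 and 6.73 to 7.38 times in FR2. Among the 16 ratio comparisons, every one whose groups did not overlap had p = 0.1 in the exact permutation test, the smallest that 3 against 3 libraries can give, and an adjusted p of 0.123 in that test. Ratios to ITGB7 were not compared with hnCD16, where 1 library had 0 counts of that gene. The log2 ratio of ITGA4 to ITGB1 differed by -0.13 between FR1 and hnCD16 in TPM (exact permutation p = 0.300) and by 0.01 in CPM. Against CTRL it differed by -0.41 in FR1 and -1.20 in FR2 in TPM, and by -0.21 and -0.99 in CPM. The ITGA4 level in TPM includes a minor transcript whose share differed between the groups, as given below.

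CD58 (NCBI Gene 965, chr1:116514534-116571039, - strand), the ligand of CD2, was higher in the FR groups. It had 18.1, 21.1 and 20.8 TPM in CTRL, 21.6, 23.4 and 23.0 TPM in hnCD16, 36.9, 42.1 and 40.0 TPM in FR1, and 42.5, 45.4 and 42.2 TPM in FR2. No neighbouring groups overlapped in the order FR2, FR1, hnCD16, CTRL, although the highest FR1 library was just below the lowest FR2 library and that difference missed the threshold (log2 fold change of FR1 against FR2 -0.12 ± 0.0654, edgeR adjusted p = 0.158). CD58 was up-regulated against CTRL in FR2 (log2 fold change 1.16 ± 0.0702, edgeR adjusted p = 4.14e-11) and in FR1 (1.04 ± 0.0709, edgeR adjusted p = 2.50e-10). The call in FR1 was lost with library size only (0.85), on log2(TPM + 1) with limma (0.95) and without CTRL replicate 1 (1.0 after rounding). Against hnCD16 its log2 fold changes were 0.75 ± 0.0697 in FR1 and 0.87 ± 0.0690 in FR2.

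CD2 (NCBI Gene 914, chr1:116754430-116769229, + strand), the receptor for CD58, was barely detected. It had 2, 0 and 3 counts in CTRL, 3, 0 and 2 in hnCD16 and 0 in each FR1 and FR2 library, where 0 counts allow up to 3. No group rose above the floor of 3 counts in any library, so no fold change is given and a difference was not detectable at this depth.

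**Figure D3:**
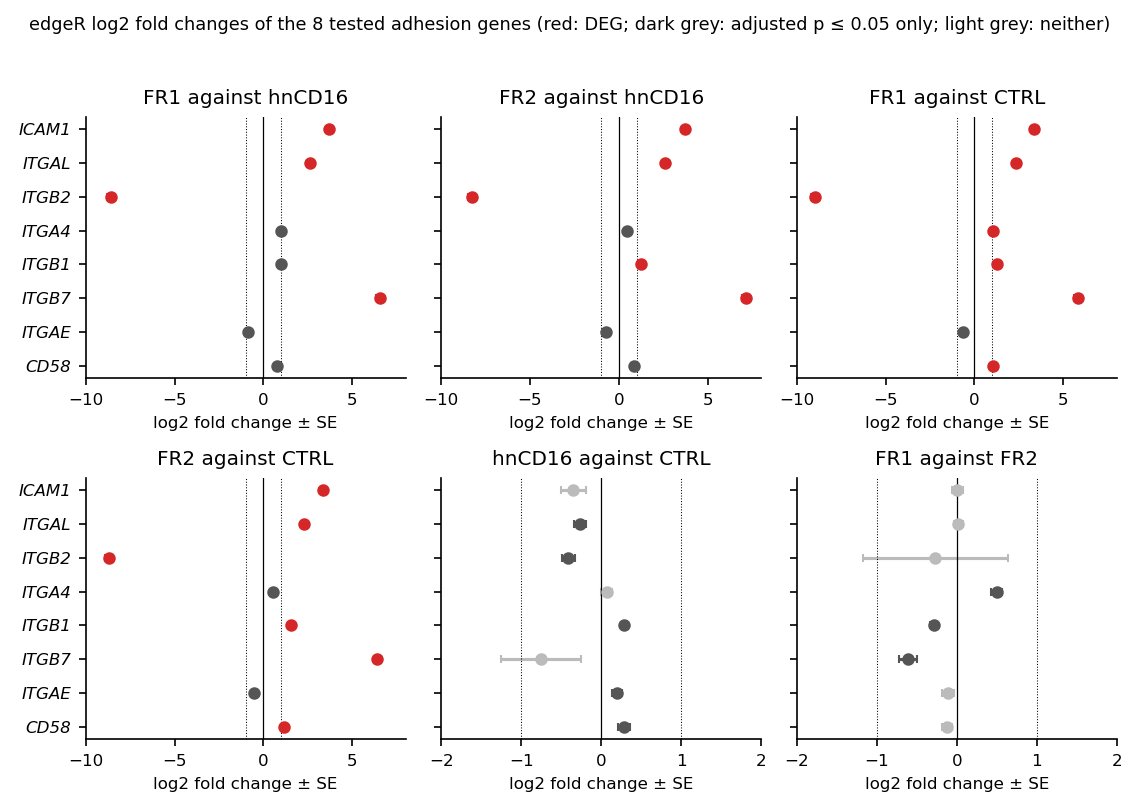
Log2 fold changes ± SE (x axes) of the 8 tested genes in the 6 comparisons, from edgeR. The dotted lines mark the fold threshold, red points are DEGs, dark grey points passed only the adjusted p and light grey points passed neither, and the x axis of hnCD16 against CTRL and of FR1 against FR2 is narrower than that of the other 4 panels. ITGB7 and ITGB2 lay farthest from 0, and no gene was a DEG in the 2 comparisons within a pair of groups.

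Within each pair of groups the differences of the 8 tested genes stayed under the fold threshold, and CD2 was not tested. In hnCD16 against CTRL, where 0.527% of all genes tested were DEGs, 0 of the 8 were DEGs by edgeR, DESeq2 or limma, and 5 had an unadjusted edgeR p under 0.05. ITGB2 and ITGAL were lower in hnCD16 (log2 fold change -0.41 ± 0.0811, edgeR adjusted p = 0.000684, and -0.27 ± 0.0744, edgeR adjusted p = 0.00693). ITGB1, CD58 and ITGAE were higher (0.29 ± 0.0468, edgeR adjusted p = 0.000179, then 0.29 ± 0.0748, edgeR adjusted p = 0.00453, and 0.20 ± 0.0639, edgeR adjusted p = 0.0158). An adjusted p of at most 0.05 at any fold was reached by 43.0% of all genes in this comparison, and the small differences of these 5 genes stand beside that share. ITGB7, with 0 to 22 counts per library in these groups, had a log2 fold change of -0.75 ± 0.498 (edgeR adjusted p = 0.249). It ran from -1.24 to -0.18 when 1 library was left out, so the size of its difference was not determined at this depth. With library size only, the median of all genes shifted by -0.11 on the log2 scale.

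In FR1 against FR2, whose constructs differ by the 2B4 domain, 1.93% of all genes tested were DEGs and 0 of the 8 were, by edgeR, DESeq2 or limma. An edgeR adjusted p of at most 0.05 at any fold was found for 3 of them, as for 36.2% of all genes tested, and the same count had an unadjusted p under 0.05. ITGA4 was higher in FR1 (log2 fold change 0.50 ± 0.0659, edgeR adjusted p = 2.20e-05), and ITGB7 (-0.61 ± 0.113, edgeR adjusted p = 0.000473) and ITGB1 (-0.29 ± 0.0461, edgeR adjusted p = 0.000126) were lower. ICAM1 and ITGAL had log2 fold changes of 0.01 ± 0.0714 and 0.02 ± 0.0598, whose sign changed with the scaling. The share of the 8 genes that differed between FR1 and FR2 was thus close to that of all genes. These groups also differed in FCGR3A, with 559 to 567 counts in FR1 and 1012 to 1132 in FR2. The 2B4 domain, the construct level and the transduced population cannot be told apart in this comparison.

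The deposited transcript values divided several of the genes differently among the groups, among them ITGA4, CD58 and ITGAL. The minor transcript NM_001316312 of ITGA4 held between 4.70% and 5.60% of the gene's counts in CTRL and between 3.51% and 3.72% in hnCD16, but 0.858% to 1.35% in FR1 and 1.07% to 1.29% in FR2. It made up 28.8 ± 5.67 TPM in CTRL and 8.13 ± 1.08 TPM in FR2 (SD, n = 3), while the main transcript NM_000885 was at 107 ± 14.6 TPM and 140 ± 7.32 TPM. The gene's TPM adds both transcripts, so ITGA4 in FR2 overlapped CTRL in TPM while its counts differed. For CD58, XM_017002869 held between 13.3% and 16.6% of counts in CTRL and between 12.2% and 15.4% in hnCD16, but 2.69% to 3.63% in FR1 and 2.68% to 4.87% in FR2, and NM_001779 held 62.1% to 69.3%, 72.3% to 76.5%, 78.8% to 88.1% and 81.4% to 85.2%. The XM_017002869 share rests on 12 to 43.3 estimated counts per library. For ITGAL, with 6 transcripts listed, XM_005255313 held 0.0893% to 18.1% of counts in CTRL and 3.89% to 9.69% in hnCD16, but 23.9% to 53.2% in FR1 and 20.9% to 39.3% in FR2, with a wide spread within each group. These shares are RSEM's division of reads between overlapping transcripts and were not tested.

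The promoter stretches of ICAM1, ITGB7 and ITGAE are shown because ICAM1 and ITGB7 rose in all 4 comparisons while ITGAE, the partner chain of ITGB7, was lower. RefSeq windows (GRCh38.p14, from 250 bases before to 50 after a gene's start) were matched for 7 of the 9 genes, not for ITGAL and ITGB2, and 4 motifs were searched on both strands: TTCNNNGAA (STAT), TGTGGT (RUNX), GGGCGG (Sp1) and the NF-kB consensus, none of which overlap each other in the stretches printed. The 250 bases before the start are given 5′ to 3′ on the strand of the gene, with motif matches in capitals, and lie at chr19:10270870-10271119 (+), chr12:53207252-53207501 (-) and chr17:3801189-3801438 (-).
ICAM1: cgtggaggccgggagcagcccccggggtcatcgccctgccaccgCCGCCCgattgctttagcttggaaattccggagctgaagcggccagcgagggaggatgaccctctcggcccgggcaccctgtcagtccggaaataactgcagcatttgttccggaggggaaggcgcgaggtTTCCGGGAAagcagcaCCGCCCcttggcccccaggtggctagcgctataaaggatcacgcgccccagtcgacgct
ITGB7: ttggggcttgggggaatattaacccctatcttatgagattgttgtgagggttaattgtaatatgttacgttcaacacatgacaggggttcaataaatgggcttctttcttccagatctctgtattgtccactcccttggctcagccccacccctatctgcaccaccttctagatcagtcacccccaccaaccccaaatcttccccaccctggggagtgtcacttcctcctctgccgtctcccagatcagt
ITGAE: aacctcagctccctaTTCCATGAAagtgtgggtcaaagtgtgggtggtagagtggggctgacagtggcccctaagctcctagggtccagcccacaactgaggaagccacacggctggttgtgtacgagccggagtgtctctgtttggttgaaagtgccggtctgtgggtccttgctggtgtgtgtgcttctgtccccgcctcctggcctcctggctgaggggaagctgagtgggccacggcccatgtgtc

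ICAM1 held a STAT match, TTCCGGGAA, 75 bases before the start and Sp1 matches 206 and 59 bases before it. ITGAE held a STAT match, TTCCATGAA, 235 bases before the start, and ITGB7 held no match of the 4 motifs. Among the other windows, 1 of 2 of ITGB1 held 3 Sp1 matches and an NF-kB match, that of CD58 held 3 Sp1 matches, and those of ITGA4 and CD2 held none. Of all 35116 promoter windows, 7.66% held the STAT motif, 13.1% the RUNX motif, 45.0% the Sp1 motif and 11.3% the NF-kB consensus. GC content was 64.7% for ICAM1, 51.7% for ITGB7 and 61.3% for ITGAE, beside a median of 58.7% over all windows. A match describes the sequence only. The NF-kB consensus searched opens with GGG, and sites that depart from it were not counted. The stretch tggaaattcc of ICAM1, which departs from it at the first base, was one of these, so ICAM1 is not shown to lack such a site.

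The other genes of the pathway were taken from 6 lists with 82 genes, 74 of which were tested. Of these, 49 were DEGs in FR1 against hnCD16 (66.2%), 51 in FR2 against hnCD16 (68.9%), 47 in FR1 against CTRL (63.5%) and 50 in FR2 against CTRL (67.6%), beside the 38.0% to 39.5% of all genes. In hnCD16 against CTRL 1 was a DEG (1.35%), and in FR1 against FR2 2 were (2.70%), beside 0.527% and 1.93% of all genes. The lists were chosen with earlier results of these data known. Their higher shares are therefore a description and no evidence about adhesion genes as a class.

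Among 16 other integrin subunits tested, 5 were higher and 6 lower DEGs in each of the 4 comparisons, and the median log2 fold change lay between -0.27 and -0.04. Over all genes tested, 18.3% to 19.6% were higher and 19.6% to 19.9% lower DEGs. ITGAX and ITGAM, the α chains of the β2 integrins CD11c and CD11b, were up-regulated. ITGAX rose from 0.343 ± 0.0379 TPM in CTRL and 0.290 ± 0.0436 TPM in hnCD16 to 13.8 ± 0.860 TPM in FR1 and 20.9 ± 0.866 TPM in FR2 (SD, n = 3), with a log2 fold change against hnCD16 of 5.47 ± 0.112 and 6.12 ± 0.106. ITGAM rose from 0.0900 TPM to 0.763 ± 0.165 and 0.830 ± 0.159 TPM, with log2 fold changes of 2.98 ± 0.352 and 3.09 ± 0.346. With ITGAL, these 3 α chains of the β2 family were up-regulated in groups where ITGB2 was at the floor. ITGA5, the fibronectin receptor chain that pairs with β1, fell from 524 to 601 counts in CTRL and 385 to 446 in hnCD16 to at most 2 in any FR library. ITGAV, the αv chain of vitronectin receptors, fell from 10.4 ± 1.79 and 11.2 ± 1.37 TPM to 0.0967 ± 0.0814 and 0.117 ± 0.0513 TPM.

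The integrin ligands, ICAM1 apart, were down-regulated or not called. Of 7 tested, 6 were lower DEGs in both comparisons with hnCD16, 5 in FR1 against CTRL and 6 in FR2 against CTRL, and 0 were higher DEGs, with medians of -1.91, -2.50, -2.16 and -2.85. All genes tested held 18.3% to 19.6% higher and 19.6% to 19.9% lower DEGs in these comparisons. ICAM3, a leukocyte ligand of LFA-1, was at 51.9 ± 3.52 TPM in CTRL, 40.2 ± 1.73 TPM in hnCD16, 2.77 ± 0.265 TPM in FR1 and 2.61 ± 0.319 TPM in FR2, a log2 fold change of -3.58 ± 0.117 and -3.70 ± 0.119 against hnCD16. ICAM5, another LFA-1 ligand, had 61 to 70 counts in CTRL, 40 to 48 in hnCD16 and at most 1 in any FR library. Among the LFA-1 ligands tested, ICAM1 was thus the one that rose. VCAM1 and MADCAM1, the ligands of VLA-4 and α4β7, did not pass the filter and had at most 1 and 6 counts in any library, and they are named here after their values were seen.

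Genes that control integrin activation from inside the cell, activators and some restrainers together, changed in both directions. Of 17 tested, 6 to 8 were higher DEGs and 3 were lower DEGs in the 4 comparisons, with medians of 0.75, 0.77, 0.65 and 0.78. The shares over all genes tested were 18.3% to 19.6% higher and 19.6% to 19.9% lower. FLNA and SHARPIN, which are known to hold integrins inactive and are named here after their values were seen, were among the higher DEGs in FR1 against hnCD16, with log2 fold changes of 2.25 and 1.22. TLN2, a talin that binds integrin β tails, rose from 0.0767 ± 0.0379 TPM in CTRL and 0.0667 ± 0.00577 TPM in hnCD16 to 3.96 ± 0.0503 TPM in FR1 and 3.14 ± 0.128 TPM in FR2. FYB1, the adaptor ADAP that couples immune receptors to integrins, rose from 2.33 ± 0.355 and 1.75 ± 0.198 TPM to 49.9 ± 1.34 and 46.1 ± 1.52 TPM (log2 fold change against hnCD16 4.88 ± 0.0781 and 4.74 ± 0.0782). RASGRP2, the exchange factor CalDAG-GEFI that loads Rap1, fell from 49.0 ± 3.26 and 44.6 ± 0.780 TPM to 0.660 ± 0.101 and 1.76 ± 0.272 TPM, and was also a DEG in FR1 against FR2 (log2 fold change -1.44 ± 0.161, edgeR adjusted p = 4.56e-06), a call lost on log2(TPM + 1) with limma. APBB1IP, the Rap1 effector RIAM that brings talin to integrins, fell from 17.6 ± 0.562 and 13 ± 1.32 TPM to 1.41 ± 0.197 and 2.01 ± 0.320 TPM.

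Genes that link integrins to the cytoskeleton were called in 1 direction. Of 16 tested, 9 were higher DEGs in 3 comparisons and 8 in FR1 against CTRL, and 0 were lower DEGs, with medians of 1.36, 1.46, 1.13 and 1.21. The shares over all genes tested were 18.3% to 19.6% higher and 19.6% to 19.9% lower. ZYX, zyxin of focal adhesions, had 2.38 ± 0.142 TPM in CTRL, 1.65 ± 0.417 TPM in hnCD16, 61.9 ± 7.03 TPM in FR1 and 74.9 ± 3.83 TPM in FR2 (log2 fold change against hnCD16 5.30 ± 0.123 and 5.56 ± 0.122). PARVB, β-parvin of the complex around integrin-linked kinase, had 1.70 ± 0.507, 1.28 ± 0.207, 26.2 ± 0.985 and 34.3 ± 0.901 TPM in the same order.

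Around CD2, 2 of 5 tested partners were DEGs in each of the 4 comparisons, both higher. That share was close to the 38.0% to 39.5% of all genes tested that were DEGs. CD48, which binds 2B4 and, more weakly, CD2, rose from 1.86 ± 0.449 TPM in CTRL and 3.96 ± 0.653 TPM in hnCD16 to 154 ± 6.22 TPM in FR1 and 204 ± 7.20 TPM in FR2. It was also the one listed gene called in hnCD16 against CTRL (log2 fold change 1.26 ± 0.205, edgeR adjusted p = 0.00018), a call lost on log2(TPM + 1) with limma, where 0 were called. PSTPIP1, which binds the CD2 tail, rose from 3.63 ± 0.316 and 3.31 ± 0.472 TPM to 25.5 ± 0.870 and 33.9 ± 1.93 TPM. Of 13 other leukocyte adhesion receptors, 2 were higher and 10 lower DEGs in each comparison, with medians between -3.60 and -3.30. Over all genes tested, 18.3% to 19.6% were higher and 19.6% to 19.9% lower DEGs. SELPLG, the selectin ligand PSGL-1, rose from 10.8 ± 0.151 and 8.01 ± 0.371 TPM to 49.4 ± 1.45 and 69.0 ± 2.26 TPM. CD44, the hyaluronan receptor, had 722 to 850 counts per library in CTRL and hnCD16 and at most 2 in FR1 and FR2, and CD6, a T cell adhesion receptor, had 186 to 251 and at most 1.

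**Figure D4:**
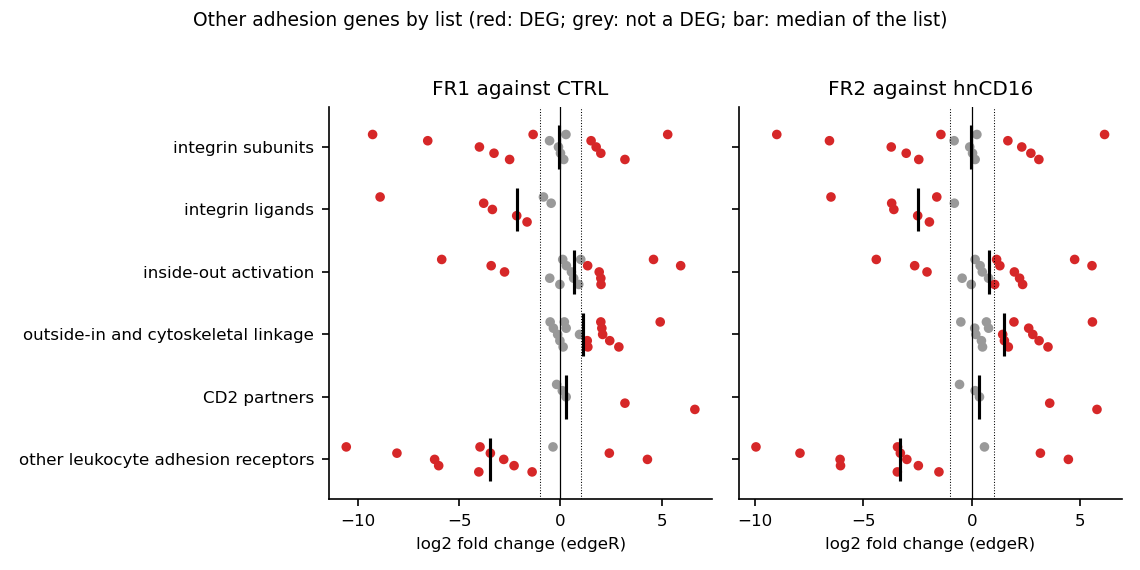
Log2 fold changes (x axes, edgeR) of the tested genes of the 6 adhesion lists in FR1 against CTRL and in FR2 against hnCD16, which share no library. Red points are DEGs, grey points are not, and the bar is the median of each list. Integrin ligands and other adhesion receptors lay mostly below 0, cytoskeletal linkage genes mostly above 0, and integrin subunits on both sides.

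The patterns of these genes over the 12 libraries were shared by many others. By Pearson's r of log2(CPM + 1), a description over libraries that share groups, the gene most like ICAM1 was CCDC78 (r = 0.9995), the gene most like ITGB2 was RASL10B (0.9998), the gene most like ITGB7 was SMAD3 (0.9987) and the gene most like ITGAL was SBNO2 (0.9992). ITGA4 was most like VIRMA (0.9927), ITGB1 most like THADA (0.9980), ITGAE most like TEX30 (0.9925) and CD58 most like GOLGA5 (0.9912). Of these 8, SBNO2, RASL10B and SMAD3 were also, on log2(TPM + 1), among the 2 genes most like their partner and the other 5 were not, and there r of ITGA4 with VIRMA was 0.9331. Of 13656 genes compared, r exceeded 0.95 for 2485 with ICAM1, 2458 with ITGAL, 2605 with ITGB2 and 2416 with ITGB7 and for 272 with ITGA4. The split of the libraries into 2 pairs is common to all these points.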

How the data were processed

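RNA-seq libraries of 4 groups of transduced YT cells, 3 replicates each, were analysed. Per the paper's methods, SOAPnuke was used for trimming, HISAT2 2.1.0 for mapping to GRCh38.p13 and RSEM 1.3.1 for quantification. The deposited expected counts are RSEM estimates per gene and transcript without normalization, and the TPM values, also RSEM output of the authors, are scaled to length and library. A further 40 value columns per table, such as FPKM and group averages, were not used. The strand setting and the annotation release are not given in the sources used here.

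Expected counts were rounded. Of 17589 genes, 17563 had a count, and filterByExpr of edgeR, applied by group, kept 13657. All 4 groups were fitted at once with edgeR 4.0.16 (R 4.3.3, quasi-likelihood test, TMM, no covariates), with Benjamini-Hochberg adjustment within each of 6 comparisons. DEG thresholds followed the paper's methods, which name DESeq2. On simulated data for FR1 against hnCD16 (13399 genes), 200 of 200 genes changed by a log2 fold change of 2 and 1 unchanged gene were called. In the deposited data, 5234 of 13657 genes (38.3%) were DEGs in that comparison. Calling with that many changed genes, or with other sizes of change, was not tested. Libraries held 17714566 to 18729019 counts, and no pair of replicates was identical. Alternatives were DESeq2 1.42.0, RLE factors, limma 3.58.1 (on log2 TPM with a pseudocount of 1 or 0.1), library size only, other filters, fits of 2 groups, a replicate block, no fold threshold and leaving out each library.

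The 9 genes, the lists and the tests were chosen with earlier results of these data known. Named besides the 9 are, per list, the 2 highest and 2 lowest log2 fold changes among DEGs of FR1 against hnCD16 with a mean of at least 1 CPM, and the genes most like each of the 9. In 4 lists fewer genes met this rule. Coordinates are from GENCODE v44, and promoter windows from RefSeq. The values of 1 marker gene are not reported here.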

Additional observations from a re-analysis of the deposited data

How the results depend on the processing

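Of the 707 alternative values of single-gene log2 fold changes, 681 kept their direction and their side of the threshold, 16 changed sign, 8 lost and 2 gained a call. None of the sign changes concerned a DEG. ITGA4 in hnCD16 against CTRL was -0.15 with limma at both pseudocounts and -0.04 with library size only. ICAM1 in FR1 against FR2 was -0.01 with DESeq2, limma and RLE factors, -0.06 with library size only and -0.04 to 0.05 when 1 library was left out. ITGAL in FR1 against FR2 was -0.04 with library size only and -0.03 to 0.06 when 1 library was left out, and ITGB2 there ranged from -0.68 to 0.37. The log2 ratio of ITGA4 to ITGB1 in FR1 against hnCD16 was 0.01 in CPM. A minimum of 10 counts in every library left 6 of the 8 tested genes, since that filter removes ITGB2 and ITGB7. Of these 6, 2 were DEGs in FR1 and 3 in FR2 against hnCD16, beside 2992 and 3150 of 10758 genes. Without a fold threshold 8 genes were called in each of these comparisons, 5 in hnCD16 against CTRL and 3 in FR1 against FR2. Leaving out 1 library gave 5 to 7 DEGs in FR1 against CTRL and 4 to 5 in FR1 against hnCD16. Of the 74 list genes, the filter of 10 counts left 32, 33, 30 and 32 DEGs in FR1 and FR2 against hnCD16 and FR1 and FR2 against CTRL, over 52 genes tested. In hnCD16 against CTRL, 0 were called on log2(TPM + 1) with limma and 33 without the fold threshold, and in FR1 against FR2 1 and 28. With no filter, 3 list genes were called in FR1 against FR2. Over all genes, DEGs under the filter of 10 counts numbered 2992, 3150, 2966, 2965, 8 and 73 of 10758 tested. Without the fold threshold they numbered 10799, 10946, 10912, 10947, 5872 and 4939 of 13657. Both are in the order used above, with hnCD16 against CTRL and FR1 against FR2 last. In hnCD16 against CTRL, 72 genes were DEGs, 32 with DESeq2, 6 on log2(TPM + 1) with limma and 47 in a fit of the 2 groups, and in FR1 against FR2 264 were, 58 on log2(TPM + 1) with limma. The cause of these changes was not tested, the filters and the fold threshold apart.

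Replicate numbers were not taken to pair the libraries, since nothing says that a number marks a batch. The mean correlation of same-numbered deviations from the group means was 0.0563, 0.0868, 0.0257, 0.0869, 0.254 and -0.0348. Single pairs ran from -0.102 in FR1 against FR2 to 0.404 in hnCD16 against CTRL, where the lowest was 0.0196. Whether a replicate effect was shared by hnCD16 and CTRL, the comparison with the highest mean, was not tested. With the replicate block, 4, 5, 7, 6, 0 and 0 of the tested genes were called, and 5244, 5395, 5206, 5232, 75 and 275 of all genes, of which 5229, 5385, 5193, 5218, 70 and 260 were also called without it. It changed no call of the 8 genes.

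Depth limits CD2, ITGB2 in FR1 and FR2 and ITGB7 in CTRL and hnCD16, where counts were 0 to 22 per library. Another scaling, library size only, shifted the median of all genes by -0.19 in FR1 against CTRL and -0.13 in FR2 against CTRL, and RLE factors by no more than 0.02 in size.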
